A study of Saccharomyces cerevisiae with 9 samples.

Results

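The ribosome biogenesis genes described here were the 58 protein-coding genes of Saccharomyces cerevisiae whose symbol is UTP, NOP, RRP, NOC or RPF followed by a number, out of 6002 protein-coding genes in the annotation. Their 554 nucleosome calls were those with a WT dyad, the centre of the nucleosome, from 60 bp upstream of the start codon to the stop codon, out of 49751 calls in the same window of all genes and 51917 paired calls in all. MNase-seq, the sequencing of DNA that nucleosomes protect from micrococcal nuclease, was performed on ioc3Δ, ioc3ΔcHLB and WT ISW1a cells, 3 samples per strain. All strains were BY4742 grown in YPD, and the labels give a FLAG tag for each of them, ioc3Δ included, while the methods describe the tag on IOC3 and on its truncated form. The cells were crosslinked with formaldehyde, and mononucleosomal DNA was cut from a gel. The deposited tables hold calls on the merged samples of a strain, so no value of a single sample and no spread between samples can be given. Occupancy is a signal that the authors scaled to the mean coverage of the genome. In the table labelled ioc3ΔcHLB the IOC3 gene held 0.680% of its WT occupancy, against 0.574% in ioc3Δ, and between these tables the occupancies of a call differed by less than sampling noise. The mutant dyad was the same base in both at 58 of the 539 ribosome biogenesis calls that these tables share. The tables were counted as 1 sample, and the comparison below is ioc3Δ against WT.

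Ribosomes are made in the nucleolus, where the long precursor of the rRNAs is transcribed, modified, cut and folded while ribosomal proteins join it. The UTP proteins build the small-subunit processome on the nascent transcript, as the subcomplexes UtpA, UtpB and UtpC and as single factors. NOP1, NOP56 and NOP58 belong to the box C/D ribonucleoprotein particles that methylate the RNA. NOC2, NOC3, the RPF and many NOP proteins act on the precursor of the large subunit, and NOC4 on that of the small subunit. Several RRP proteins are subunits of the exosome, which trims and degrades RNA. In budding yeast these genes are switched on and off together with growth, and many of their promoters carry the PAC element, which the repressors Dot6 and Tod6 bind, and the RRPE element, which Stb3 binds. Ioc3 is the partner of the ATPase Isw1 in the ISW1a complex, a chromatin remodeler that spaces nucleosomes.

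The promoters are shown first, because many of these genes share sequence elements there. In the RefSeq sequence of the R64 assembly (sacCer3), the 250 bp before the start codon held the PAC sequence GCGATGAG, on either strand, in 25 of the 58 genes (43.1%), against 3.83% of 6001 promoters of the same length. The core of RRPE, AAAATTTT, which reads the same on both strands, was found in 36 genes (62.1%), against 8.65% of all promoters. Both were present in 16 genes (27.6%), against 1.92%. The Reb1 core TTACCCG, which overlaps neither, was found in 7 (12.1%), against 7.03%. These are matches of letters and not measured binding sites. In 15 of the 16 genes with both elements the RRPE core nearest to PAC lay upstream of it, and NOP14 was the exception. NOP7 also held an RRPE core downstream of its PAC, at 100 bp before the start codon against 127 bp for PAC. The centres of the nearest pairs lay a median of 19 bp apart (8 to 52 bp). The pair fitted into 30 bases in 12 genes, of which 6 are printed 5′ to 3′ on the gene's own strand with the PAC and RRPE letters in capitals. They show the constant order, the varied distance, and PAC on both strands.
NOP8, chrXV:52977-53006, plus strand: tgAAAATTTTtaagaattgaGCGATGAGct
UTP21, chrXII:937338-937367, minus strand: aAAAATTTTgagaaaaatttcGCGATGAGa
UTP7, chrV:326051-326080, minus strand: gtaagAAAATTTTctaaGCGATGAGttcgt
RRP8, chrIV:611969-611998, plus strand: ggcctgaAAAATTTTGCGATGAGctcaaaa
UTP13, chrXII:581856-581885, minus strand: AAAATTTTctgaaaaattcagCTCATCGCt
NOP2, chrXIV:510393-510422, plus strand: tgaaaAAAATTTTcatCTCATCGCagaata

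The places of the elements were then read relative to the nucleosomes. Matches were sought only in the 250 bp before the start codon, and +1 lies near that codon. The search window thus bounds these distances, and no such distances were taken for all promoters. The centre of PAC lay a median of 122 bp upstream of the WT +1 dyad (quartiles 107 and 137 bp), and 24 of the 25 matches fell between nucleosome calls. The 44 matches of the RRPE core lay a median of 135 bp upstream of that dyad, and 41 of them fell between calls. In NOP8 the PAC centre was 99 bp and the RRPE centre 117 bp upstream of the +1 dyad, and in UTP21 they were 120 and 140 bp upstream. The distance of the +1 dyad from the nearest upstream call had a median of 345 bp in ioc3Δ and 341 bp in WT in the ribosome biogenesis genes, against 463 bp in ioc3Δ and 455 bp in WT over all genes. The 95% interval of the WT median was 308 to 474 bp in the ribosome biogenesis genes and 448 to 462 bp over all genes, so the medians are not separated by these intervals. Such intervals treat genes as independent and cover no spread between cultures.

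**Figure D1:**
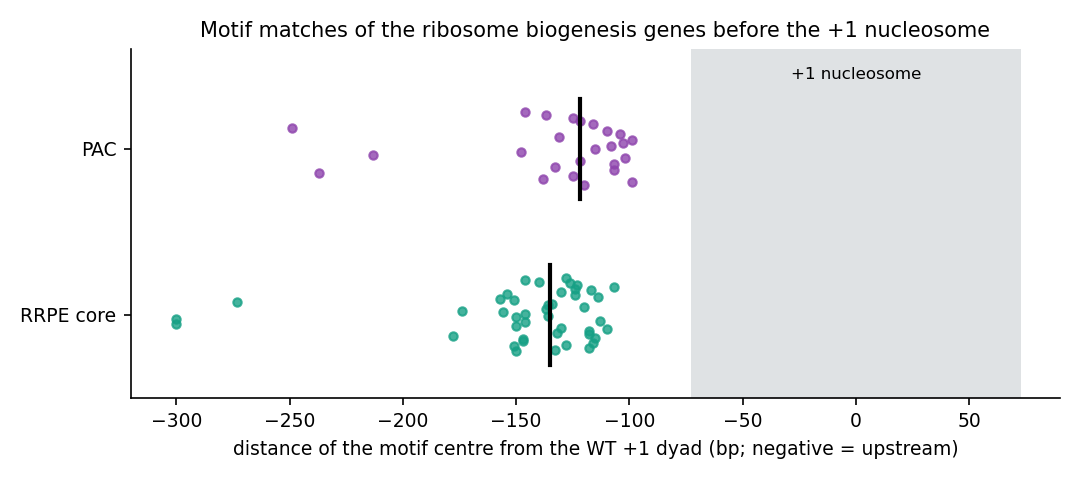
Distance of each PAC match (upper row) and each RRPE core match (lower row) of the ribosome biogenesis genes from the WT +1 dyad, in bp, negative being upstream; the black bars are the medians and the shaded band is the DNA of the +1 nucleosome. The medians lie 122 bp upstream for PAC and 135 bp upstream for the RRPE core, outside the shaded band.

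The nucleosomes behind these promoters were counted from the start codon, so +1 lies near it by the rule that defines it. Nucleosomes were numbered in the 57 genes longer than 560 bp. NOP10, a core protein of the box H/ACA particles with a coding region of 177 bp, was too short and had 2 calls. The genes lay on 14 chromosomes, each with 1 coding exon, and had between 2 and 37 calls, with UTP20 (7482 bp), a scaffold of the small-subunit processome, the longest. In WT the +1, +2, +3 and +4 dyads lay at medians of 10, 176, 336 and 493 bp from the start codon, against 13, 179, 346 and 511 bp over all genes. The distance between the +1 and +4 dyads had a median of 489 bp in ioc3Δ and 484.5 bp in WT over the 48 genes with both, against 502 bp in ioc3Δ and 500 bp in WT over all genes. The interval of the WT median was 479 to 491 bp in the ribosome biogenesis genes and 499 to 501 bp over all genes. Per nucleosome the ribosome biogenesis arrays measured 163 bp in ioc3Δ and 161.5 bp in WT.

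A property of the deposited calls moves with these distances. No paired call lay closer than 148 bp to its neighbour in either table, and many lay at exactly that distance. In the ribosome biogenesis genes 163 of 554 calls (29.4%) had such a neighbour in ioc3Δ and 121 (21.8%) in WT, against 26.1% in ioc3Δ and 17.7% in WT over all gene calls. At +4, 23 of 48 calls had a neighbour at 148 bp in ioc3Δ and 13 in WT. Over the 36 ribosome biogenesis genes with no such distance between +1 and +4 in WT, the WT median of the +1 to +4 distance was 489 bp, against 502 bp over 3253 genes treated alike.

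The first nucleosomes lay slightly downstream in ioc3Δ, as they did over all genes. A shift is the distance from the WT dyad to the ioc3Δ dyad, positive where ioc3Δ lies further along the gene. The median shift of +1, +2, +3 and +4 was 1, 2, 3 and 2 bp in the ribosome biogenesis genes, against 2, 4, 4 and 3 bp over all genes. The 95% intervals of the ribosome biogenesis medians were 1 to 2 bp at +1, 2 to 4 bp at +2, 1 to 4 bp at +3 and 0 to 5 bp at +4. The dyad lay downstream in 41 and upstream in 13 of 57 genes at +1, and downstream in 41 and upstream in 9 of 57 at +2. At +3 it lay downstream in 39 and upstream in 12 of 54 genes, and at +4 downstream in 29 and upstream in 15 of 48. Calls with no neighbour at 148 bp gave medians of 1, 2, 2 and 2 bp at +1 to +4 in the ribosome biogenesis genes.

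Beyond +4 the medians of these genes were not downstream. The medians at +5, +6 and +7 were −0.5 bp over 34 genes, −2.5 bp over 22 and −2 bp over 13, against 1, 0 and 0 bp over all genes. The 95% intervals were −4 to 2 bp at +5, −5 to 2 bp at +6 and −19 to −1 bp at +7. Those at +5 and +6 include 0 and the median of all genes. At +7 the dyad lay upstream in 11 of the 13 genes (84.6%), against 49.3% of all genes. The last call before the stop codon had a median shift of −4 bp (95% interval −5 to −1 bp), downstream in 18 and upstream in 37 of 57 genes. Over all 4950 genes the median was −2 bp, downstream in 1472 and upstream in 3115. Over the 13 genes with all 7 numbered nucleosomes, the distance between +1 and +7 was shorter in ioc3Δ in 12 of them, by a median of 3 bp. Over all genes this distance was shorter in 1114 of 1838, and the median change was 3 bp shorter as well.

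**Figure D2:**
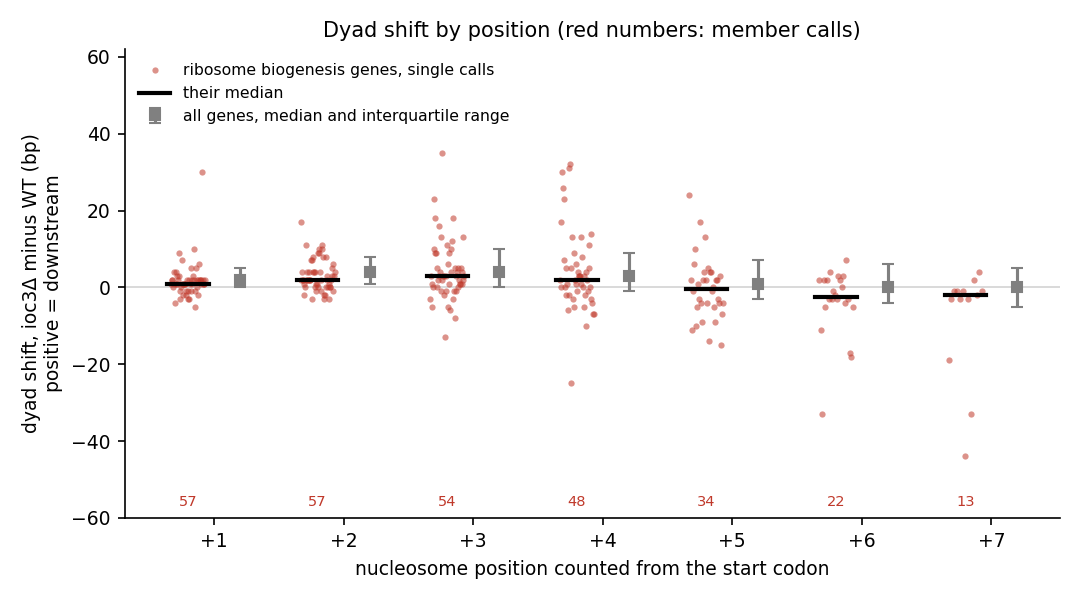
Shift of the dyad in ioc3Δ relative to WT (bp, positive being downstream) at nucleosome positions +1 to +7. Red points are single calls of ribosome biogenesis genes with their median as a black bar, grey squares are the medians of all genes with the interquartile range, and the red numbers count the points. The medians of the ribosome biogenesis genes are 1, 2, 3 and 2 bp at +1 to +4 and lie below 0 from +5 on.

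A size of 10 bp or more was reached by few calls near the promoter. At +2, 5 of 57 ribosome biogenesis calls (8.77%) lay 10 bp or more downstream, where 19.0% of all +2 calls did. At +3 there were 11 of 54 (20.4%), where 26.4% of all +3 calls did. Over all calls, 63 of 554 (11.4%) lay 10 bp or more downstream, against 15.5% of all gene calls, and 63 (11.4%) lay 10 bp or more upstream, against 13.0%. The ribosome biogenesis share was thus lower than that of all genes downstream and close to it upstream, and downstream and upstream calls were equal in number. No test was made of these differences.

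The position test named in the methods was run for each call as a test that allows unequal variances. It took the shift and the dyad SD of both strains, with occupancy as the number of observations, and its threshold was an unadjusted p under 0.01. It compares merged libraries and not cultures, so only passing or not passing is given for single calls. In the ribosome biogenesis genes 24 of 554 calls (4.33%), in 15 genes, passed it downstream, against 12.5% of all gene calls, and 20 (3.61%), in 14 genes, passed it upstream, against 9.06%. At +2 it was passed downstream by RRP42 and NOP1 alone, 2 of 57 calls (3.51%), where 24.6% of all +2 calls passed. At +3 it was passed downstream by NOC2, NOP4, RRP3 and UTP14, 4 of 54 calls (7.41%), where 24.0% of all +3 calls passed. A call of +1 to +4 passed in either direction in 9 of 57 genes (15.8%), where 51.0% of all genes had one.

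Occupancy, which enters the test as the number of observations, was lower in these genes. The median occupancy of the ribosome biogenesis calls was 36 in ioc3Δ and 37.4 in WT, against 51.8 in ioc3Δ and 59.2 in WT over all gene calls. Among +2 calls with a WT occupancy of 30 to 45, 1 of 20 ribosome biogenesis calls passed with a median shift of 3.5 bp, where 13.1% of all such calls passed with a median shift of 4 bp. From 45 to 75, none of 11 ribosome biogenesis calls passed with a median shift of 2 bp, where 19.7% passed with a median of 5 bp. From 75 to 150, none of 11 passed with a median shift of 3 bp, where 31.4% passed with a median of 4 bp. Below 30, 0 of 14 passed, where 7.09% of all such calls did. The 1 call at 150 or more passed, where 51.8% did. Each range holds few ribosome biogenesis calls, and the part of occupancy in the lower share of passing calls was not tested.

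The genes whose first nucleosomes lay farthest downstream were NOC2 and NOP8, both factors of the large-subunit precursor, with a median over +1 to +4 of 16 bp. In NOC2 (YOR206W, chromosome XV, 727512 to 729644, plus strand) the dyads lay at 3, 166, 348 and 496 bp from the start codon in ioc3Δ, against 4, 165, 313 and 465 bp in WT. The first nucleosomes +1 and +2 were thus in place within 1 bp, and +3 and +4 lay 35 and 31 bp downstream, and both passed the position test. The occupancy of +3 was 29.9 in ioc3Δ and 19.3 in WT, and that of +4 was 21.9 in ioc3Δ and 12.8 in WT. By the mean of the dyads, a separate column of the tables, the same calls lay 14 and 10 bp downstream. The +3 dyad was 148 bp from its neighbour +4 in ioc3Δ and 148 bp from its neighbour +2 in WT.

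The DNA under this call is printed because it holds the largest shift among all +1 to +4 calls of these genes. It is the 147 bp centred on the WT dyad of NOC2 +3, bases 241 to 387 of the coding region, in the R64 assembly. The capitals mark the path from the WT dyad to the ioc3Δ dyad, in the direction of transcription, and its GC content was 38.1%.
NOC2 +3, chrXV:727752-727898, plus strand: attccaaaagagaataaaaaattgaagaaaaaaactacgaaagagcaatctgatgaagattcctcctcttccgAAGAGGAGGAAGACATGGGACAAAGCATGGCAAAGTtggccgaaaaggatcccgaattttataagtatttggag

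In NOP8 (YOL144W, chromosome XV, 53098 to 54552, plus strand) all of the first nucleosomes lay downstream, at 11, 176, 352 and 500 bp in ioc3Δ, against 2, 167, 329 and 477 bp in WT. None of the 4 passed the test, at occupancies of 10.4 in ioc3Δ and 20.4 in WT at +1 and 30.7 in ioc3Δ and 14.9 in WT at +3. Its +3 and +4 were 148 bp apart in both strains, as were those of NOC4, which lay 13 bp downstream each.

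NOP14, the partner of NOC4 in the small-subunit precursor, had shifts of 2, 8, 16 and 17 bp at +1 to +4, of which +4 passed (occupancy 75.7 in ioc3Δ and 48.5 in WT). The distance from WT thus grew along the first part of the gene. RRP3, a DEAD-box helicase for 18S rRNA, had shifts of 1, 11, 9, 32 and 24 bp at +1 to +5, and +3, +4 and +5 passed. NOP4, an RNA-binding factor of the large subunit, had shifts of 1, 4, 18, 13 and 13 bp, and +3 passed (occupancy 52.8 in ioc3Δ and 27.6 in WT). In these 3 genes +1 stayed within 2 bp of its WT place.

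UTP8, a UtpA subunit, had shifts of 2, 4, 11 and 30 bp, and UTP20 had −1, 9, 9 and 6 bp, and none of these calls passed. In RRP42, an exosome subunit, +1 and +2 passed with 6 and 17 bp, while +3 lay at the same base in both strains and +4 lay 10 bp upstream. NOP2, a methyltransferase of 25S rRNA, had 4, 4, 4 and 26 bp, and +4 passed. RRP8, another 25S rRNA methyltransferase, had a +1 dyad 30 bp downstream at the low occupancies of 3.39 in ioc3Δ and 6.35 in WT, and it did not pass.

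At the other end of the order, RRP15 of the large-subunit precursor had shifts of 0, −3, −5 and −3 bp. The exosome subunit RRP45 had 1, −3, −1 and −7 bp, UTP22 of UtpC had 1, −2 and −2 bp, UTP21 of UtpB had 3, −1 and −1 bp, and UTP25 had 0, 2, −3 and −6 bp. None of these calls passed the test. The only +1 to +4 call that passed upstream was +4 of NOP13, with −25 bp, occupancies of 62.4 in ioc3Δ and 64.1 in WT, and −6 bp by the mean of the dyads.

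Over the 54 genes with at least 3 of the nucleosomes +1 to +4, the median shift was above 0 in 46, below 0 in 7 and 0 in 1. In the 48 genes with all 4, every dyad lay downstream in 12, every dyad upstream in none, and dyads lay in both directions in 30. The 12 were NOP2, NOP4, NOP8, NOP14, NOP19, RRP3, RRP40, RRP46, UTP8, UTP13, UTP15 and UTP18. None of these counts by gene was taken over all genes. The spread between genes was wide beside the median. At +3 the quartiles over the ribosome biogenesis genes were 0 and 8.25 bp, and at +4 they were −2 and 7.25 bp.

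**Figure D3:**
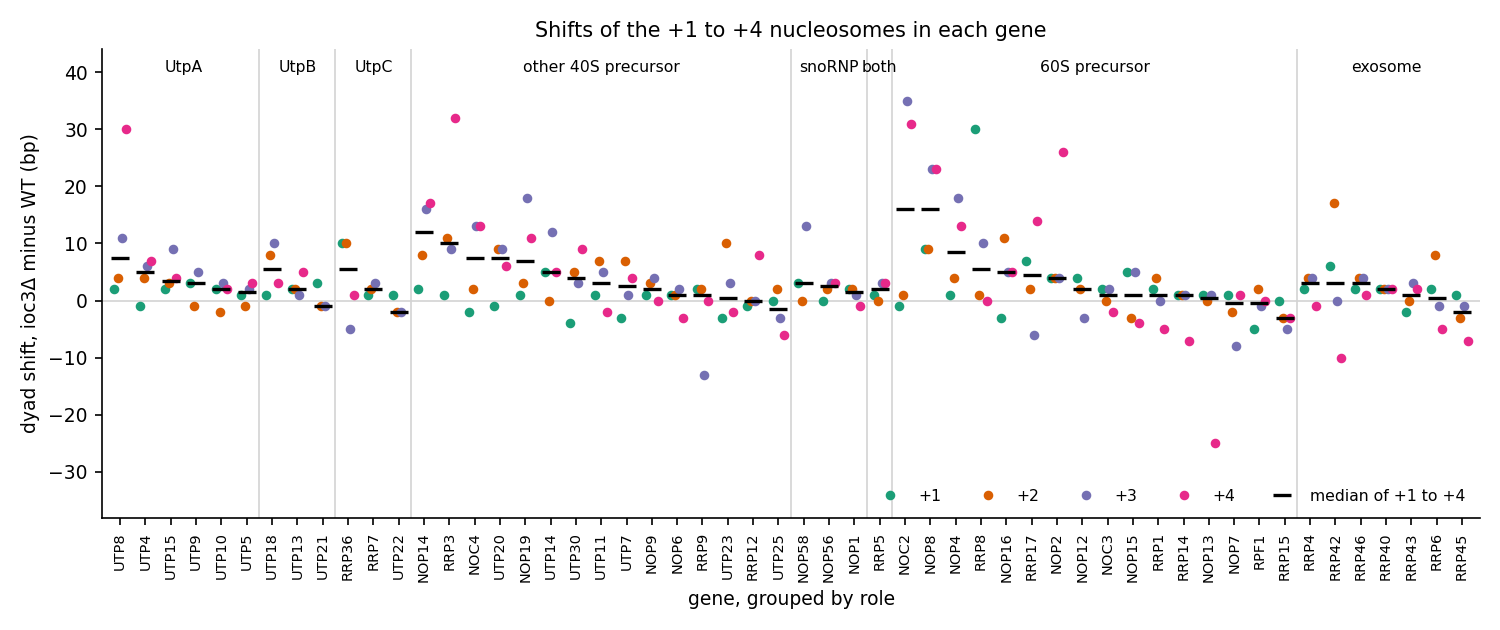
Shift of the +1 to +4 dyads (coloured points, bp, ioc3Δ minus WT) in each of the 54 ribosome biogenesis genes with at least 3 of them, grouped by role, with the gene's median as a black dash. The medians of NOC2 and NOP8 are the highest at 16 bp, and RRP15 is the lowest at −3 bp.

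Grouped by role, the small differences between medians stood beside few genes. The 18 factors of the large-subunit precursor had medians of 1.5, 2, 1.5 and 0 bp at +1 to +4, and 4 of the 18 had a call of +1 to +4 past the test. The 15 other factors of the small-subunit precursor had 1, 3, 4 and 5 bp, with 3 of 15 past the test. The 6 UtpA genes had 2, 1, 5.5 and 4 bp, the 4 UtpB genes 1.5, 2, 1 and 4 bp, and the 3 genes of UtpC and its partner 1, 2, −2 and 1 bp. No gene of these 3 subcomplexes had a +1 to +4 call past the test. The 7 exosome genes had 2, 4, 2 and −1 bp, with 1 of 7 past the test, and the 3 numbered snoRNP genes 2, 2, 3 and 1 bp, with 1 of 3. RRP5, which acts on both subunits, had 1, 0, 3 and 3 bp. Some of these medians rest on fewer genes, because not every gene had a numbered +3 or +4 call. The large-subunit factors numbered 16 at +3 and 15 at +4, and the UtpA genes 5 at +4. The UtpB genes numbered 3 at +3 and 2 at +4, and the snoRNP genes 2 at +4. The +4 value of UtpC and its partner is RRP36 alone.

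Single genes followed no common order within a role. Within UtpA, UTP5 had the lowest median, with shifts of 1, −1, 2 and 3 bp, and within UtpB, UTP18 had the highest, with 1, 8, 10 and 3 bp. RRP36, the partner of UtpC, had 10, 10, −5 and 1 bp, and the exosome cap subunit RRP4 had 2, 4, 4 and −1 bp. The nuclear exosome nuclease RRP6 had 2, 8, −1 and −5 bp. The box C/D proteins NOP56 and NOP58 had 0, 2, 3 and 3 bp and 3, 0 and 13 bp, and UTP7 had −3, 7, 1 and 4 bp. None of the +1 to +4 calls of these genes passed the test.

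The genes with and without the PAC core had similar medians at +1 and +2. The 34 genes with CGATGAG before the start codon (58.6%, against 6.32% of all promoters) had median shifts of 1, 2, 4 and 3.5 bp at +1 to +4, and the 24 genes without it had 1, 2, 2.5 and 0 bp. With the core the medians rest on 32 genes at +3 and 28 at +4, and without it on 23, 23, 22 and 20 at +1 to +4. No test was made of these differences, which are smaller than the spread between genes.

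The largest moves lay deep in the coding regions. A move of 40 bp or more was found at 21 of 554 calls (3.79%, against 5.53% of all gene calls) in 15 genes, 9 downstream and 12 upstream, and none was at +1 to +4. The pairing of calls allows at most 72 bp. These calls were poorly placed in both strains, with a median dyad SD of 37.4 bp in ioc3Δ and 36.9 bp in WT. The largest were 71 bp downstream in UTP8, at 1225 bp from the start codon in WT (occupancy 31.7 in ioc3Δ and 16 in WT), and 72 bp upstream in UTP4, at 2126 bp (occupancy 19.9 in ioc3Δ and 20.8 in WT). Both passed the test. UTP4 and UTP8 encode subunits of the same subcomplex, UtpA, and their calls moved in opposite directions.

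Neighbouring calls moved together in 6 stretches of at least 3 calls with 10 bp or more in the same direction. In UTP4 (YDR324C, chromosome IV, 1114433 to 1116763, minus strand) the last 3 calls lay 66, 72 and 53 bp upstream, and all passed the test. By the mean of the dyads they lay 44, 75 and 27 bp upstream. None of them had a neighbour at 148 bp. In UTP20 (YBL004W, chromosome II, 227636 to 235117, plus strand) 3 calls between 6478 and 6795 bp lay 40, 67 and 49 bp downstream, and all passed, while its first 4 calls lay within 9 bp.

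In RRP14 (YKL082C, chromosome XI, 281025 to 282329, minus strand), a factor of the large subunit, +6 to +9 lay 33, 33, 48 and 48 bp upstream, and 3 of the 4 passed. All 4 had a neighbour at 148 bp in both strains, their WT occupancies were low, with a median of 13.7 against 19.1 in ioc3Δ, and the median by the mean of the dyads was 18.5 bp upstream. The other stretches were in NOP4 at +3 to +5, in UTP8 from 1225 to 1724 bp with 71, 26 and 13 bp downstream, and in UTP25, where 4 calls lay 10 to 14 bp upstream and none passed. Stretches thus occurred in both directions, 3 downstream and 3 upstream. The 4 UTP25 calls and NOP4 +4 and +5 also had a neighbour at 148 bp in both strains. In ioc3Δ alone, the UTP8 calls at 1563 and 1724 bp had one, as did the UTP20 calls at 6629 and 6795 bp. Calls at this smallest distance can move together, and its part in the stretches was not tested. Such stretches were not counted over all genes.

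**Figure D4:**
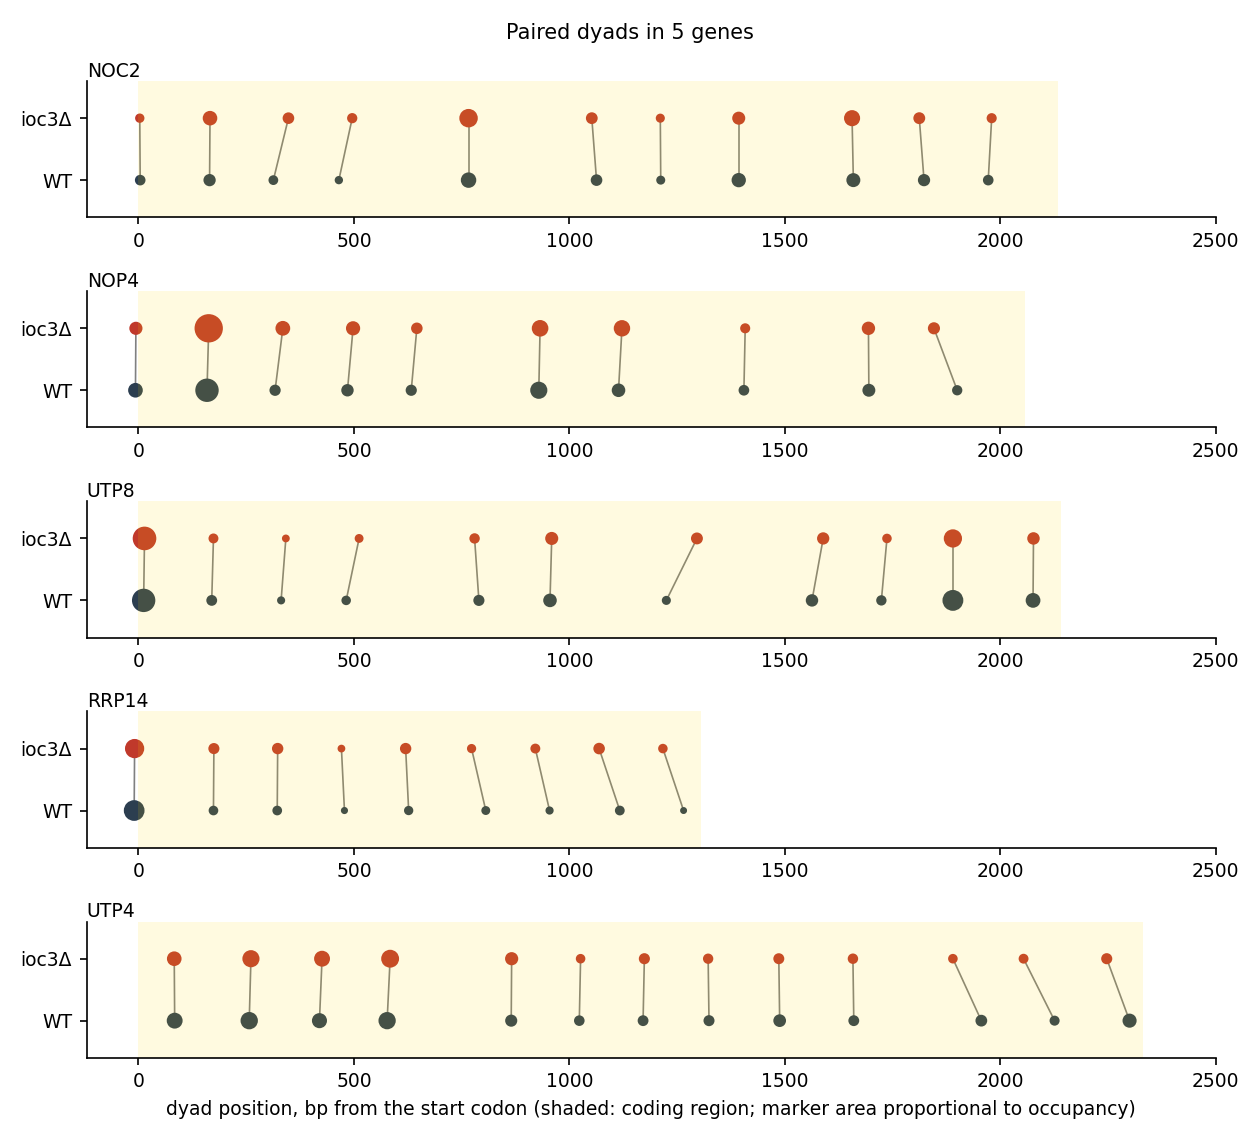
Dyads of NOC2, NOP4, UTP8, RRP14 and UTP4 in ioc3Δ (red, upper row of each map) and WT (dark, lower row), in bp from the start codon; lines join paired calls, the marker area is proportional to occupancy, and the coding region is shaded. NOC2 and NOP4 depart from WT at +3, UTP4 late in the coding region, and RRP14 from +6 on. UTP8 departs at +3 and +4 and again from 1225 to 1724 bp.

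Occupancy was compared after division of each ioc3Δ to WT ratio by 0.892, the median of this ratio over all pairs. The median ratio of the 554 calls was 1.09 (95% interval 1.06 to 1.12), against 1.01 over all gene calls, but it turned to 0.974 without this scaling and to 0.824 when scaled by the summed occupancies. Over all gene calls it was 0.903 without scaling and 0.764 by summed occupancies. A scaling divides every ratio by the same number, so it leaves the order of both sets as it is. The interval of 1.06 to 1.12 treats calls as independent, although 1 gene holds up to 37 of them. It covers no spread between cultures. A scaled ratio above 1 was found at 352 of 554 calls (63.5%), against 51.6% of all gene calls, and an unscaled ratio above 1 at 256 (46.2%), against 37.0%. Among the 58 genes the median ratio was above 1 in 43 with scaling, in 30 without it and in 9 by summed occupancies. No such count over all genes is given.

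The +1 nucleosome stood apart from those behind it. Its median occupancy was 44.6 in ioc3Δ and 49.0 in WT in the ribosome biogenesis genes, against 64.9 in ioc3Δ and 75.8 in WT over all genes. At +2 the medians were 41.6 in ioc3Δ and 39.3 in WT, against 70.1 in ioc3Δ and 75 in WT over all genes. The +2 nucleosome had a WT occupancy below the median of all genes in 45 of 57 ribosome biogenesis genes. The scaled ratio was 0.916 at +1 and 1.21, 1.17 and 1.14 at +2, +3 and +4, against 0.970, 1.09, 1.02 and 0.997 over all genes. Its intervals were 0.830 to 1.02 at +1, 1.08 to 1.32 at +2, 1.07 to 1.24 at +3 and 1.04 to 1.26 at +4. By summed occupancies the ratios of the ribosome biogenesis genes were below 1 at each of the 4, at 0.691, 0.915, 0.886 and 0.858.

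A scaled ratio of at least 1.5 was found at 80 of 554 calls (14.4%) in 37 genes, against 11.8% of all gene calls, and a ratio of at most 1/1.5 at 25 calls (4.51%) in 20 genes, against 8.96%. Without scaling the higher and lower calls numbered 50 and 49, and by summed occupancies 16 and 124. No share over all gene calls is given for these other scalings, so these counts are not set against other genes. Of the 25 calls of lower occupancy, 9 were at +1, 2 at +2, 1 at +3, none at +4, 2 from +5 on and 11 at positions without a number. At +1 these were 9 of 57 calls (15.8%), where 11.4% of all +1 calls were lower by this rule. The 9 genes were NOC3, NOP8, NOP12, RRP3, RRP5, RRP8, RRP9, UTP20 and UTP23. NOC3, a partner of NOC2 and also a replication factor, had 20.1 in ioc3Δ and 42.9 in WT, a scaled ratio of 0.526. UTP20 had 38.5 in ioc3Δ and 78.6 in WT, and RRP3 had 7.37 in ioc3Δ and 14.8 in WT. No call had a scaled ratio of 0.5 or less, and 15 calls in 13 genes had one of 2 or more, without a share over all gene calls beside them.

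NOP1 (YDL014W, chromosome IV, 427364 to 428347, plus strand), the yeast fibrillarin, which methylates rRNA guided by box C/D RNAs, held the highest occupancies. Its +1 nucleosome had an occupancy of 4693 in ioc3Δ and 2313 in WT, a scaled ratio of 2.28, and its +2 had 2725 in ioc3Δ and 1522 in WT, a ratio of 2.01. Outside NOP1 the highest value was 647.3 in ioc3Δ and 430.6 in WT, at the last call of UTP18. NOP1 held 23.3% of the fragments of the ribosome biogenesis calls in ioc3Δ and 13.9% in WT. Both calls lay 2 bp downstream in ioc3Δ and passed the position test, at these high numbers of observations. The next calls were far lower in occupancy, with 73.3 in ioc3Δ and 68.1 in WT at +3, a scaled ratio of 1.21, and 47.6 in ioc3Δ and 29.8 in WT at +4, a ratio of 1.79.

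The DNA of the NOP1 +1 call is printed for its composition, which no other call of these genes reached. Its GC content was 63.9%, the highest of all 554 calls, and that of +2 was 60.5%, the next. The 147 bp cover bases 7 to 153 of the coding region, which encodes the glycine- and arginine-rich start of the protein, in the R64 assembly. The capitals mark the path from the WT dyad to the ioc3Δ dyad.
NOP1 +1, chrIV:427370-427516, plus strand: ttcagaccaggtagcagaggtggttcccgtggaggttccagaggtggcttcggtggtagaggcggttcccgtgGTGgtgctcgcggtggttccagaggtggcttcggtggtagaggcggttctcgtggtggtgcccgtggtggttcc

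The occupancy ratio moved with base composition in ribosome biogenesis genes as in all genes. In calls with a GC content under 32% the median scaled ratio was 0.834 over 43 ribosome biogenesis calls, against 0.695 over all gene calls. From 36 to 40% it was 1.06 over 223 calls, against 0.922, and from 44 to 50% it was 1.43 over 44 calls, against 1.28. At 50% or more it was 2.01 over 5 calls, against 1.80. The ribosome biogenesis calls thus had the higher ratio in each of these bands, as in those of 32 to 36% and 40 to 44%. In WT, by contrast, their occupancy was lower in every band, for example 36.4 against 49.3 from 36 to 40% and 56.1 against 97.6 from 44 to 50%. The median GC content was 38.1% over the ribosome biogenesis calls and 39.5% over all gene calls. At +1 to +4 it was 37.4, 38.8, 39.8 and 39.5% in the ribosome biogenesis genes. The part of base composition in the occupancy ratios was not tested. The scaling sets which bands lie above 1.

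**Figure D5:**
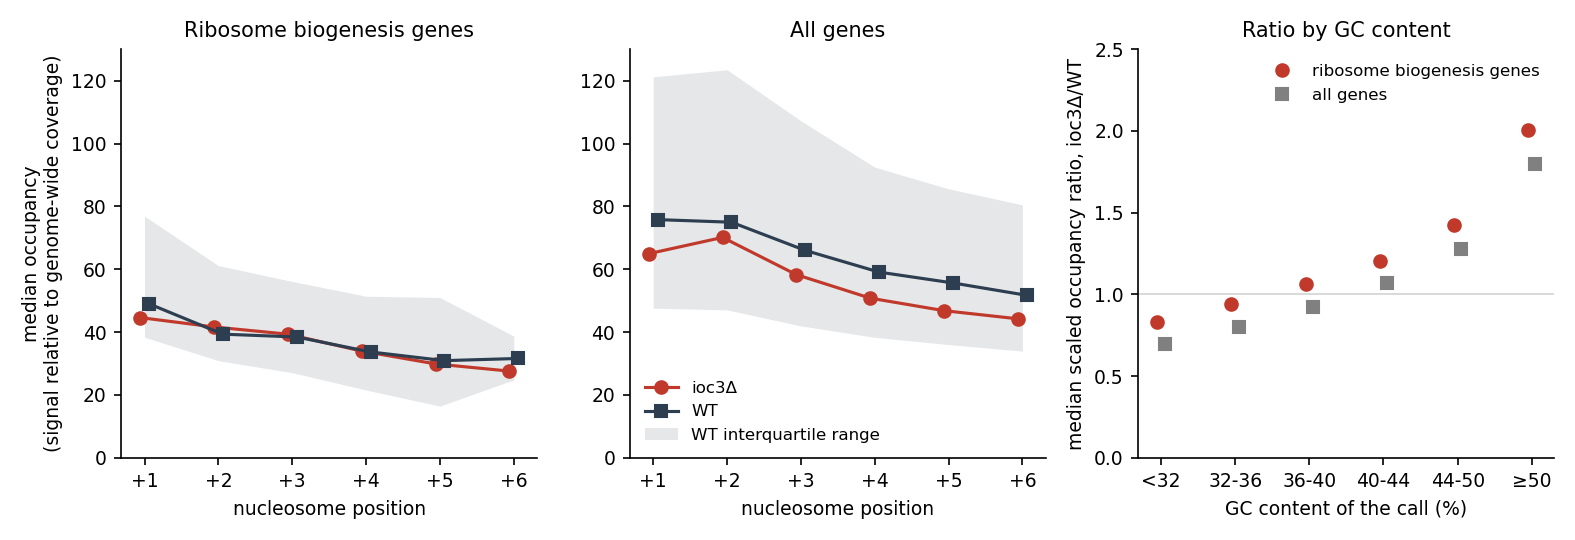
Median occupancy at +1 to +6 in ioc3Δ (red circles) and WT (dark squares, with the WT interquartile range shaded) for ribosome biogenesis genes (left) and all genes (middle), and the median scaled ioc3Δ to WT ratio by the GC content of the call (right; red for ribosome biogenesis genes, grey for all genes). The ribosome biogenesis genes lie lower than all genes at each of +1 to +4, and the ratio is higher in them in each GC band.

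Among single genes, the median scaled ratio was highest in NOP1 at 1.79, RRP14 at 1.68 and NOP6, a factor of the small subunit, at 1.61, and each of these remained above 1 under both other scalings. It was lowest in NOP15 of the large subunit at 0.743, in UTP30 at 0.803 and in UTP6 of UtpB at 0.809, and each was below 1 under every scaling. By role, a scaled ratio of at least 1.5, reached by 11.8% of all gene calls, was found at 6 of 23 snoRNP calls (26.1%), 34 of 135 calls of 60S precursor factors (25.2%) and 1 of 46 exosome calls (2.17%). These counts were 5, 22 and 1 without scaling and 3, 6 and 1 by summed occupancies, without a share over all gene calls beside them. Among the snoRNP calls counted with scaling were +1, +2 and +4 of NOP1 alone, at 2.28, 2.01 and 1.79. The median scaled ratio was 1.16 in the 60S precursor factors, which turned to 0.876 by summed occupancies, and 0.988 in the exosome genes, which was below 1 under every scaling. UTP7 had 545.3 in ioc3Δ and 322.9 in WT at +5, a ratio of 1.89, and RRP5 had a median of 1.27 over 28 calls, which turned to 0.958 by summed occupancies.

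Dyads were spread more widely in ioc3Δ in nearly all of these genes. The dyad SD was higher in ioc3Δ at 447 of 554 calls (80.7%), against 77.3% of all gene calls. The gene's median change was above 0 in 58 of 58 genes, a count that was not taken over all genes. At +1 to +4 the median SD was 17.5, 21.3, 25.2 and 27.7 bp in ioc3Δ, against 14.8, 17.9, 20.4 and 23.9 bp in WT. The median change was 2.59, 3.50, 4.31 and 4.09 bp in the ribosome biogenesis genes, against 1.86, 2.84, 3.87 and 3.99 bp over all genes. At +1 the interval of the ribosome biogenesis median, 2.11 to 2.96 bp, did not reach the median of all genes, while those at +2, +3 and +4 did. The SD was higher in 55 of 57 genes at +1 and at +2, in 52 of 54 at +3 and in 46 of 48 at +4. Most of all genes had a higher SD as well: 4023 of 4863 at +1, 4082 of 4687 at +2, 3938 of 4418 at +3 and 3504 of 3996 at +4.

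An SD at least 5 bp higher was found at 112 of 554 calls (20.2%), against 22.8% of all gene calls, and one at least 5 bp lower at 10 calls (1.81%), against 2.40%. The median change over all ribosome biogenesis calls was 2.69 bp, against 2.39 bp. It was highest in RRP36 at 6.82 bp, RRP3 at 6.19 bp and RRP1 at 5.45 bp, and lowest in UTP20 at 0.199 bp, RRP5 at 0.472 bp and NOP1 at 0.647 bp. UTP20 and RRP5 are long genes, and beyond 2000 bp from the start codon the median change was −0.0179 bp over 88 ribosome biogenesis calls, against 0.788 bp over all gene calls there. In the table labelled ioc3ΔcHLB the median changes at +1 to +4 were 4.83, 5.28, 6.19 and 5.05 bp, larger than in ioc3Δ at every position. The median shifts were 1, 2, 3 and 2 bp in both, though most single dyads differed between them.

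The same measures were taken in 112 further genes of ribosome biogenesis that carry other kinds of names, such as PWP2, IMP4 and NOG1, which hold 1037 calls. Their median shifts at +1 to +4 were 1, 3, 2 and 0 bp, over 103, 100, 94 and 85 genes, and their SD change was 2.54 bp. Their scaled ratio was 1.12, which turned to 0.999 without scaling and to 0.846 by summed occupancies. Of their calls 103 (9.93%) lay 10 bp or more downstream, against 15.5% of all gene calls, and 118 (11.4%) upstream, against 13.0%. The position test was passed downstream by 53 (5.11%), against 12.5%, and upstream by 58 (5.59%), against 9.06%. A call of +1 to +4 was past it in 27 of 103 numbered genes (26.2%), against 51.0% of all genes. The median occupancy was 40.8 in ioc3Δ and 42.5 in WT, and PAC was found in 55 (49.1%) and the RRPE core in 87 (77.7%) of their promoters. A scaled ratio of at least 1.5 was found at 183 calls (17.6%), against 11.8% of all gene calls, and one of at most 1/1.5 at 49 (4.73%), against 8.96%. Without scaling the calls of at least 1.5 numbered 86, without a share over all gene calls beside them. The medians of this list were below those of all genes in shift at each of +1 to +4 and in occupancy. No test was made between this list and the 58 genes.

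The depth behind these values was taken from the occupancies, which in both tables were whole multiples of 1 value, read as 1 fragment. All used calls held 35955477 fragments in ioc3Δ and 43911516 in WT, and the ribosome biogenesis calls 0.453% of them in ioc3Δ (95% exact Clopper-Pearson interval 0.451 to 0.455%) and 0.469% in WT (0.467 to 0.471%). Without NOP1 the shares were 0.347% in ioc3Δ and 0.404% in WT. A ribosome biogenesis call had a median of 180.5 fragments in ioc3Δ and 271 in WT, against 260 in ioc3Δ and 429 in WT over all gene calls, and the shallowest had 17 in ioc3Δ and 46 in WT. Intervals from fragments cover counting error only.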

How the data were processed

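The authors mapped paired-end MNase-seq reads to sacCer3 with Bowtie2 2.0, named in the submitters' processing notes, scaled the dyad density to the coverage of the genome, and called nucleosomes after merging the 3 samples of each strain. Deposited were dyad positions in bp, a dyad SD in bp, used as a score of each call, and an occupancy signal. WT and mutant rows are paired with at least 73 bp of overlap. Of 53840 rows, 1911 repeated another and 12 lay in the rRNA locus (chromosome XII, 451275 to 469084), which left 51917. Genes and sequences are from RefSeq R64.

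Positions were counted from the start codon in genes over 560 bp. The +1 nucleosome is the first call between 60 bp before and 120 bp after the start codon, and each next one lies 110 to 230 bp on. Median intervals are distribution-free (binomial, 95%) and shares of fragments have exact Clopper-Pearson intervals. The formula of the position test is not given in the methods and was rebuilt. It needs an occupancy of at least 2. No values of single samples were used, so no test across samples was made. The members and lists were chosen with earlier results of these data known. Genes were named by rank: the 8 highest and 5 lowest by median shift at +1 to +4, the 3 highest and lowest by occupancy ratio and by SD change, the extremes of each role and of single calls, NOP1, NOP56, NOP58, UTP7 and RRP6. Other named genes were chosen after their values were seen. The calculation was tested on simulated data. Alternatives covered filters, thresholds, scalings, the dyad column and the mutant table. Analyses were run with matplotlib 3.10.9, scipy 1.17.1, pandas 2.3.3, numpy 2.4.6 and Python 3.11.15.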

Additional observations from a re-analysis of the deposited data

How the results depend on the processing

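Under the alternatives 37 values moved and 2, both of the occupancy ratio, turned direction. Of the others, 54 stayed within the limits set, 11 more did so in the table labelled ioc3ΔcHLB, taken here as no separate sample, and 14 could not change, because every call lay in the window of 1 gene. No sample could be left out. No paired analysis was possible because neither table keeps the samples apart. The ratio was 0.974 without scaling and 0.824 by summed occupancies, 1.04 in the upper 75% of WT occupancy and 1.15 as a mean. Calls of higher and lower occupancy numbered 50 and 49 without scaling, 16 and 124 by summed occupancies, 15 and 0 at 2-fold, and 26 and 12 in the upper 75%. With a WT SD at or under the median there were 35 of higher occupancy. Calls shifted downstream and upstream numbered 116 and 116 at 5 bp, 25 and 24 at 20 bp, 19 and 22 in the upper 75%, and 20 and 10 at the lower WT SD. The position test was passed by 23 calls with shifts of at most 36 bp, 20 in the upper 75%, 12 at the lower WT SD and 0 with 3 observations per strain. With fragments as observations, an alternative chosen after seeing the data, 173 calls passed (31.2%), against 47.9% of all gene calls. Wider and narrower dyads numbered 246 and 26 at 3 bp, 38 and 4 in the upper 75%, 71 and 0 at the lower WT SD, and 204 and 6 in the table labelled ioc3ΔcHLB, and 4 narrower ones had shifts of at most 36 bp. The SD change was 3.49 bp at the lower WT SD, 4.14 bp in the table labelled ioc3ΔcHLB and, chosen after seeing the data, 2.94 bp without the 3 longest genes. The mean +3 shift was 4.31 bp. Except with fragments as observations, no share over all gene calls is given beside the counts under these alternatives.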
